A study of Homo sapiens with 8 samples.

Results

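The genes described here are 38 components of protein folding and quality control in the endoplasmic reticulum (ER): 11 luminal chaperones and co-chaperones, 3 proteins of the lectin cycle, 5 disulfide enzymes, 11 components of ER-associated degradation (ERAD), 5 stress sensors and transcription factors, and 2 translocon subunits grouped with the ER membrane protein WFS1. They were chosen by gene symbol for their known roles, out of 61806 genes in the deposited table. No cut on a measured value was made, but earlier results of these data were known. All 38 had at least 10 counts in at least 4 libraries and were therefore among the 14893 genes that were tested. The study sequenced mRNA of wild-type N/TERT-1 cells, a human epidermal keratinocyte line immortalized with telomerase. Cells of one group received ethanol, the solvent control, and cells of the other received oligomycin, an inhibitor of the mitochondrial ATP synthase, together with antimycin A, an inhibitor of respiratory complex III (O/A). Each group had 4 biological replicates, and all libraries came from this 1 unmodified line. The sample labels give neither dose nor duration. The study's figure legend for this sequencing gives 4 hours of O/A.

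Newly made secretory and membrane proteins enter the ER through the Sec61 channel and are folded there by chaperones, lectins and disulfide enzymes, while chains that fail to fold are returned to the cytosol by ERAD and degraded by the proteasome. When unfolded chains accumulate, the chaperone BiP leaves the luminal domains of 3 sensors, and the unfolded protein response (UPR) begins: IRE1 splices the XBP1 transcript, ATF6 is cleaved into a transcription factor, and PERK phosphorylates eIF2α and thereby favors translation of ATF4. XBP1 and cleaved ATF6 switch on chaperone and ERAD genes. Keratinocytes run this machinery to make the adhesion receptors and basement membrane proteins that anchor them. Splicing of XBP1, cleavage of ATF6 and phosphorylation of PERK cannot be read from counts per gene, so the values below are mRNA levels only.

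The ethanol libraries held between 17210404 and 20999927 counts, and the O/A libraries between 17689760 and 19263046. Replicates were distinct from each other beyond sampling noise: chi-square divided by its degrees of freedom was 1.73 to 5.33 within a condition and 49.1 to 58 between conditions. The keratinocyte markers KRT5 and KRT14 were present at 932 or more FPKM (fragments per kilobase of exon, scaled to library depth) in every library, whereas 13 of 15 markers of fibroblasts, melanocytes, immune cells and endothelium were below the count minimum, the exceptions being COL1A1 (2.38 to 2.94 FPKM) and PMEL (0.26 to 0.65 FPKM). Of the 8 keratinocyte markers, KRT5 (log2 fold change -0.30), SFN (-0.28) and KRT15 (-0.26) were lower in O/A, 5 were not called, and their summed level was 3650 to 3930 FPKM in ethanol and 3120 to 3290 in O/A. That of the 15 other markers was 3.01 to 3.41 and 2.74 to 3.38. The part of these marker differences in the results below was not tested. Bulk libraries cannot distinguish a change in RNA per cell from a change in which cells are present. In what follows, a gene was called higher or lower when its edgeR quasi-likelihood adjusted p (Benjamini-Hochberg over all genes tested) was at most 0.05 and its log2 fold change exceeded 0.25 in size. Levels by library are depth-scaled counts (CPM, with factors from the trimmed mean of M values), which compare 1 gene between libraries. Comparisons of levels between genes use FPKM, which is per exonic length in the gene annotation. They therefore depend on that annotated length.

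Of the 38 genes, 22 were called higher in O/A (57.9%), none was called lower, and 16 were not called. Over all genes tested, 34.7% were called in either direction, 15.8% higher and 18.9% lower. The genes were chosen with earlier results known, so these shares are descriptions. The counts by role below stand beside the same 15.8%. The median log2 fold change of the 38 genes was 0.29, beside a median of about 0 for all genes, and single values ran from -0.15 for EDEM3 to 3.35 for DNAJB9. By adjusted p alone, 32 were higher (26.0% of all genes were), EDEM3 was lower, and 5 passed in neither direction: DERL3, SDF2, WFS1, ATF6B and SDF2L1. In 30 of the 38, every O/A library lay above every ethanol library, which was so for 22.8% of all genes. The increase was uneven. DNAJB9, HERPUD1, ERN1, XBP1 and HSPA5 were the 5 genes above a log2 fold change of 1, the next was EDEM1 at 0.86, and 28 of the 38 were below 0.5.

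**Figure D1:**
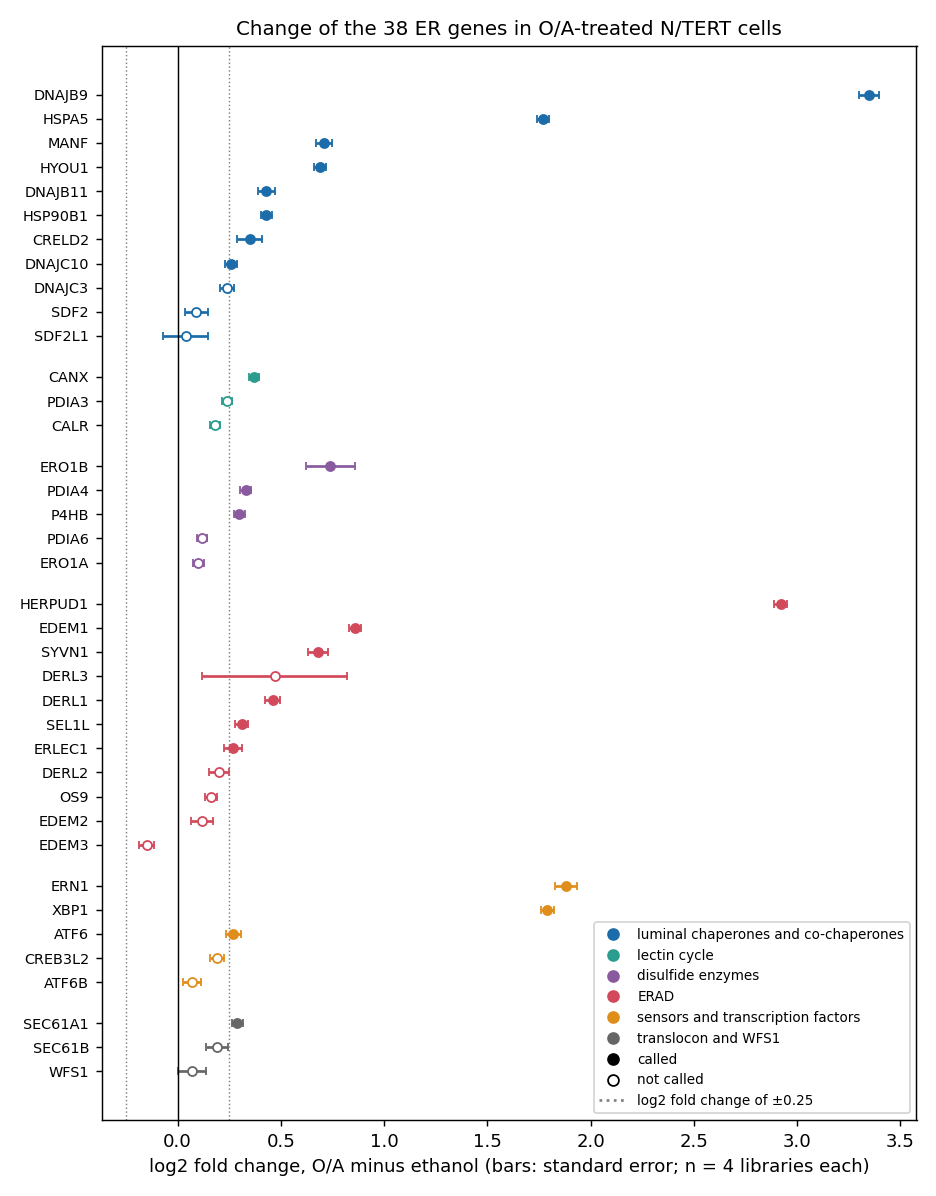
Log2 fold change of each of the 38 genes (x axis, O/A minus ethanol, with its standard error) by role (color). Filled points were called and open points were not. DNAJB9, HERPUD1, ERN1, XBP1 and HSPA5 lie between 1.77 and 3.35, and the other genes lie between -0.15 and 0.86.

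The promoters are shown here because 2 sequence elements of the UPR can be searched by their letters. The ER stress response element (ERSE) was searched as CCAAT and CCACG separated by 9 bases. ERSE-II was searched as ATTGG and CCACG separated by 1 base. Near matches were not searched for. An ERSE or ERSE-II below is therefore an exact match, and a window without one may still hold a near match. Windows of 300 bases, from 250 before to 50 after the annotated start (RefSeq, GRCh38.p14), were searched on both strands and were available for 35 of the 38 genes (not for DERL1, DERL3 and PDIA3). Those below belong to the 4 genes with an ERSE and the highest log2 fold changes, HSPA5 (chr9:125241294-125241593, minus strand), XBP1 (chr22:28800520-28800819, minus strand), ERO1B (chr1:236281909-236282208, minus strand) and HSP90B1 (chr12:103930160-103930459, plus strand), and to HERPUD1 (chr16:56931892-56932191, plus strand), which holds an ERSE-II. Each is written 5′ to 3′ on the strand of its gene, and capitals mark the fixed letters of each element, which read as their reverse complement where the element lies on the other strand.
HSPA5 promoter: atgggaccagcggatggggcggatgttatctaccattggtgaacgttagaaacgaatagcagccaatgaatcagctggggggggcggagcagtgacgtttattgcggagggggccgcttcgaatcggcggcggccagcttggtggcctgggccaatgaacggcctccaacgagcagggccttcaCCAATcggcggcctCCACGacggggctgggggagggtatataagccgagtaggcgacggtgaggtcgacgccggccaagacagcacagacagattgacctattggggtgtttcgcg
XBP1 promoter: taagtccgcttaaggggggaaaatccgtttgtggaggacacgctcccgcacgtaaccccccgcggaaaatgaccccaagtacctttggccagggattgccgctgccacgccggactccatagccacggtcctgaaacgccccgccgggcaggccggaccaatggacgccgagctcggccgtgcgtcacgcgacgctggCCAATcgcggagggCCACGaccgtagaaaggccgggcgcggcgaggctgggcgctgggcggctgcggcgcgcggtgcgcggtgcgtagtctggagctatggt
HSP90B1 promoter: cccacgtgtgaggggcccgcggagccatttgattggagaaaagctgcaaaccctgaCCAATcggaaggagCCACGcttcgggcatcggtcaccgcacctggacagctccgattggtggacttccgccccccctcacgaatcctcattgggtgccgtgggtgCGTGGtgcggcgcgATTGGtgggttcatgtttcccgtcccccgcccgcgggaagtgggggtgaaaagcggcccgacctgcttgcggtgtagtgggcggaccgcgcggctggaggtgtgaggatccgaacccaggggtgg
ERO1B promoter: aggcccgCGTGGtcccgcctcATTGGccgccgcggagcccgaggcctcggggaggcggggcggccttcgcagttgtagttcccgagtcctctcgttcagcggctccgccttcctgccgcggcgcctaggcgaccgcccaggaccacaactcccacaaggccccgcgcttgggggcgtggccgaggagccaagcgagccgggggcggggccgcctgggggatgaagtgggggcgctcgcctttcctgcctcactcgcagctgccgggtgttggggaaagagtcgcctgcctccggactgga
HERPUD1 promoter: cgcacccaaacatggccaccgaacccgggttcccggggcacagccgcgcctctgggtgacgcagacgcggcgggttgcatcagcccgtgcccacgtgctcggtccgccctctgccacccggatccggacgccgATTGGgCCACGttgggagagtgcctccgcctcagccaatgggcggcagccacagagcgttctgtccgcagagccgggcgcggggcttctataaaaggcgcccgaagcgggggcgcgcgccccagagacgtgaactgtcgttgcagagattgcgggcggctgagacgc

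An ERSE was found in the windows of 8 of the 35 genes (22.9%), XBP1, HSPA5, ERO1B, HSP90B1, CANX, CRELD2, CALR and PDIA6, and in the windows of 25 of 27305 genes with a window (0.0916%). HSP90B1 held 2 of them. The exact match in HSPA5 began 66 bases before the start (chr9:125241391-125241409). That in XBP1 began 52 bases before it (chr22:28800603-28800621), and the remaining ones began between 80 and 243 bases before the start. Because the search was exact, these matches can differ only in the 9 spacer bases, as the following 4 show.
HSPA5 element: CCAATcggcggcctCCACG
XBP1 element: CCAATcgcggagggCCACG
CANX element: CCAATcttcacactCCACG
CALR element: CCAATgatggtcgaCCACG
An ERSE-II was found in HERPUD1, HYOU1 and SDF2L1, 3 of 35 (8.57%), against 0.0696% of all genes with a window. The all-gene shares of ERSE and ERSE-II include these genes. Genes on which the elements were first defined were not left out, so the shares are descriptions and not an independent test. That of HERPUD1 began 117 bases before the start (chr16:56932025-56932035), and HYOU1 held 2. The UPR element core TGACGTGG was in HYOU1 and DNAJC10 (5.71% of the 35, against 0.927% of all genes with a window). In HYOU1 it overlapped 1 of the ERSE-II matches. The composite site bound by ATF4, TGATGNAA, was in HERPUD1 and CREB3L2. That is 5.71% of the 35, near its share of 4.46% of all genes with a window.

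Genes with an element differed widely in their change. Of the 8 genes with an ERSE, 6 were called higher, and their log2 fold changes spanned 0.12 for PDIA6 to 1.79 for XBP1, with a median of 0.40. Of the 3 with an ERSE-II, HERPUD1 stood at 2.92 and SDF2L1 at 0.04. Of the 24 genes whose window held no exact match to either, 13 were called higher, with a median of 0.26. These 24 include DNAJB9 and ERN1, the highest and the third highest of the 38. Among 8 tested genes outside the 38 whose window held an ERSE, FICD (1.99) and SERP1 (0.52) were called higher, ZNF17 (-1.09) and SYNPO (-0.28) were called lower, and 4 were not called. Of 12 tested genes outside the 38 with an ERSE-II, LINC03006 (0.64) was called higher, GYS1 (-0.45), NAV2 (-0.70), SHCBP1 (-0.31) and ZNF143 (-0.26) were called lower, and 7 were not called. These letter matches are descriptions of the windows and do not show that a factor bound there.

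Of the sensors and transcription factors, 3 of 5 were called higher: the mRNAs of the IRE1 branch, ERN1 and XBP1, by more than 3-fold, and that of ATF6 by 1.21-fold. ERN1 encodes IRE1α, the kinase and endonuclease that splices XBP1. ERN1 (ENSG00000178607, chr17:64039080-64130819, GRCh38.p13) had 382, 338, 299 and 431 counts in ethanol, against 1159, 1370, 1379 and 1219 in O/A. Its log2 fold change was 1.88 (SE 0.054, edgeR adjusted p = 2.35e-34), a 3.68-fold rise, and every O/A library was above every ethanol library. Per length it stayed a low transcript, at 1.02 ± 0.0814 FPKM (SD, n = 4) in ethanol and 3.64 ± 0.17 in O/A. XBP1 (ENSG00000100219, chr22:28794555-28800597), the transcription factor whose mRNA IRE1 processes, had 1632, 1498, 1404 and 1672 counts with ethanol and, with O/A, 5031, 5225, 5318 and 4993. The groups did not overlap, the log2 fold change was 1.79 (SE 0.031, edgeR adjusted p = 6.43e-43), and the level went from 27.7 ± 1.34 to 92.5 ± 1.25 FPKM. The counts do not separate the spliced from the unspliced form.

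ATF6 (ENSG00000118217, chr1:161766298-161977574), the sensor that is itself cleaved into a transcription factor, had 1478, 1324, 1405 and 1689 counts with ethanol and, with O/A, 1732, 1755, 1721 and 1622, which corresponds to 74.3 to 80.03 and 91.1 to 99.6 CPM. The scaled values did not overlap, and the log2 fold change of 0.27 (SE 0.036, edgeR adjusted p = 7.93e-09) lay just above the fold threshold. The call was lost without ethanol replicate 2, the lowest ethanol library for ATF6, and without O/A replicate 1, with a log2 fold change of 0.25 in each case, and also with upper-quartile scaling (0.24) and with limma on FPKM (0.22). ATF6B, its paralog, was not called, at 0.07 (SE 0.042, edgeR adjusted p = 0.154), with overlapping groups. CREB3L2, a membrane-bound transcription factor of a related family, passed the p threshold at 0.19 but not the fold threshold.

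The third branch is represented by a separate list of 13 genes for PERK, ATF4 and genes known as ATF4 targets. All 13 were called higher, with a median log2 fold change of 2.11, while 15.8% of all genes tested were called higher. This list too was chosen with earlier results of these data known, so its count and median may reflect that choice. EIF2AK3, which encodes PERK, went from 25.1 to 29.1 CPM in ethanol to 55.8 to 60.5 in O/A (log2 fold change 1.09), and ATF4 from 231 to 248 CPM to 683 to 707 (1.54). The highest of the list were ASNS (5.22), the asparagine synthetase, CHAC1 (4.88), which degrades glutathione, and DDIT3 (3.90), the transcription factor CHOP. Each of these exceeded DNAJB9, the highest of the 38 genes. As background, PERK is 1 of several kinases that act on eIF2α, and the others respond to cues outside the ER.

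Of the luminal chaperones and co-chaperones, 8 of 11 were called higher, and the median log2 fold change of the group was 0.43. HSPA5 encodes BiP, the Hsp70 of the ER and the protein that the sensors bind. HSPA5 (ENSG00000044574, chr9:125234853-125241382, minus strand) had 11667, 11098, 10761 and 12539 counts with ethanol and, with O/A, 36569, 36913, 41436 and 35889. Every O/A library held more than 2 times the counts of any ethanol library, and the log2 fold change was 1.77 (SE 0.027, edgeR adjusted p = 1.38e-42), a 3.40-fold rise. DNAJB9, the co-chaperone ERdj4 that acts on BiP and represses IRE1, rose the most of all 38. DNAJB9 (ENSG00000128590, chr7:108569867-108574850) had 280, 273, 281 and 311 counts with ethanol and, with O/A, 2663, 2722, 3043 and 2770 in O/A, without overlap. Its log2 fold change was 3.35 (SE 0.049, edgeR adjusted p = 2.88e-48), a 10.2-fold rise.

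Other partners of BiP stood at lower log2 fold changes than DNAJB9. HYOU1, the nucleotide exchange factor of BiP, stood at 152 to 158 CPM in ethanol and 248 to 258 in O/A (log2 fold change 0.69, SE 0.028). MANF, a secreted protein that also binds BiP, stood at 60.1 to 64.1 and 97.3 to 109 CPM (0.71, SE 0.037). DNAJB11, the co-chaperone ERdj3, rose by 0.43, and DNAJC10, the reductase ERdj5, by 0.26, a call lost with upper-quartile scaling (0.23) and limma on FPKM (0.21). The overlapping gene TBCCD1 on the other strand had 19.1% as many reads as DNAJB11, and whether reads were counted by strand is not given in the sources used here, so reads in the shared stretch cannot be assigned to either. DNAJC3, the co-chaperone p58IPK, was at 102 to 106 CPM in ethanol and 118 to 130 in O/A, without overlap, and its log2 fold change of 0.24 was just under the fold threshold (0.25 and called with DESeq2).

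HSP90B1, the ER Hsp90 known as GRP94, was already abundant and rose moderately, from 629 to 674 CPM to 858 to 902 (log2 fold change 0.43, SE 0.026). CRELD2, a cysteine-rich ER stress protein, was called higher at 0.35 (SE 0.061), and its neighbor ALG12, which overlaps it on the other strand, had 65.4% as many reads and a log2 fold change of 0.09. SDF2L1 and SDF2, which keep chains soluble together with ERdj3, were not called. SDF2L1 had 126, 103, 111 and 131 counts with ethanol and, with O/A, 132, 107, 110 and 114, and its log2 fold change of 0.04 had a 95% interval from -0.18 to 0.26. Its log2 fold change was -0.052 without O/A replicate 1 and -0.012 with limma on FPKM. SDF2 stood at 0.09 with overlapping groups.

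**Figure D2:**
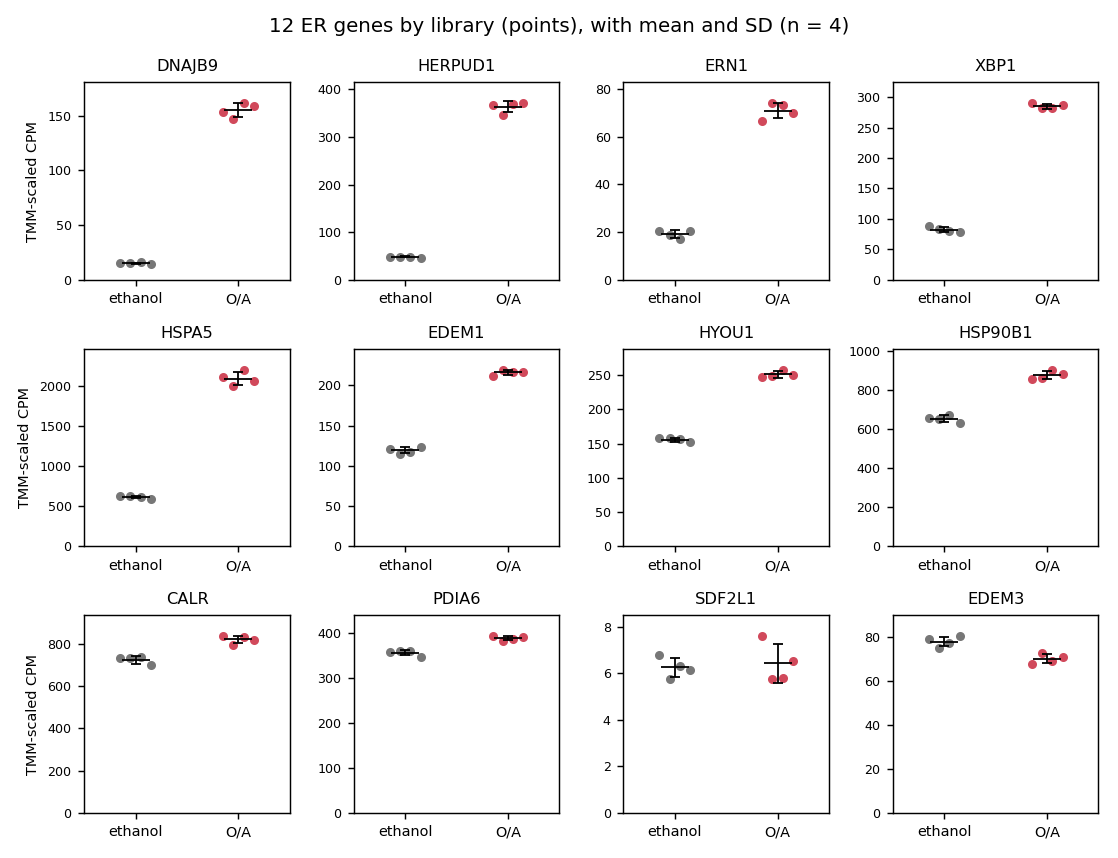
CPM of 12 of the 38 genes in every library (points), with mean and SD (n = 4 per condition). O/A libraries are separate from and above ethanol libraries in all panels except SDF2L1, where the groups overlap, and EDEM3, where they lie below.

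Of the lectin cycle, 1 of 3 genes was called higher. Calnexin and calreticulin hold glycoproteins during folding, and PDIA3 is the thiol oxidoreductase that they recruit. CANX was called higher, from 747 to 763 CPM in ethanol to 964 to 990 in O/A (log2 fold change 0.37, SE 0.024). CALR, at 697 to 737 and 796 to 834 CPM, and PDIA3, at 495 to 528 and 596 to 611 CPM, had separate groups but stayed under the fold threshold at 0.18 and 0.24. The processed pseudogene PDIA3P1 had 5.23% as many reads as PDIA3, so a small part of the PDIA3 reads may have been placed there.

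Of the disulfide enzymes, ERO1B, PDIA4 and P4HB were called higher, and PDIA6 and ERO1A were not. ERO1A and ERO1B are the oxidases that recharge protein disulfide isomerases. ERO1B had 85, 73, 85 and 85 counts with ethanol and, with O/A, 120, 136, 147 and 125, a log2 fold change of 0.74 (SE 0.12, edgeR adjusted p = 2.2e-07). Per length it was the second lowest of the 38 genes, with 0.288 ± 0.0275 FPKM under ethanol, and GPR137B, which overlaps it on the other strand, had 228% of its reads with a log2 fold change of 0.12. ERO1A, far more abundant than ERO1B per length at 52.5 ± 1.06 FPKM, stood at 0.10. PDIA4 and P4HB, members of the disulfide isomerase family, rose by 0.33 and 0.30, and PDIA6 differed by 0.12, with all O/A libraries (382 to 392 CPM) above all ethanol libraries (348 to 360 CPM).

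In ERAD, 6 of 11 genes were called higher, of which HERPUD1 had the highest log2 fold change. HERPUD1 encodes Herp, a short-lived membrane protein that organizes the retrotranslocation complex. HERPUD1 (ENSG00000051108, chr16:56932142-56944864) had 901, 863, 859 and 994 counts with ethanol and, with O/A, 6375, 6435, 6980 and 6442. The groups were far apart, and the log2 fold change was 2.92 (SE 0.033, edgeR adjusted p = 1.13e-51), a 7.55-fold rise from 9.65 ± 0.214 to 70.5 ± 1.99 FPKM. The ubiquitin ligase SYVN1 (HRD1) and its partner SEL1L form the core of the same complex. SYVN1 rose by 0.68 (SE 0.047), from 31.3 to 35.7 CPM to 52.5 to 54.2, and SEL1L by 0.31 (SE 0.031), from 116 to 126 CPM to 147 to 149. The genes FAU and MRPL49 overlap SYVN1 and had 293% and 172% of its reads, with log2 fold changes of 0.04 and -0.04.

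The EDEM proteins, which trim mannose from glycoproteins and mark them for disposal, moved apart. EDEM1 was called higher, at 115 to 123 CPM in ethanol and 212 to 219 in O/A (log2 fold change 0.86, SE 0.03, edgeR adjusted p = 4e-30). EDEM2 stood at 0.12 with overlapping groups. EDEM3 had the only negative value among the 38 genes in this fit (SDF2L1 turned negative under other settings), at 75 to 80.1 CPM in ethanol and 67.7 to 72.5 in O/A, and its log2 fold change of -0.15 (SE 0.037, edgeR adjusted p = 4.61e-04) passed the p threshold but not the fold threshold. The Derlins are candidate channel components: DERL1 rose by 0.46, and DERL2 stood at 0.20, under the fold threshold. MIS12, on the strand opposite DERL2, had 114% of its reads and itself rose by 0.71, and TBC1D31 had 16.2% of the reads of DERL1. DERL3 had 15, 10, 5 and 12 counts with ethanol and, with O/A, 12, 20, 7 and 17, and at this depth its log2 fold change of 0.47 was not distinguishable from 0 (95% interval -0.21 to 1.15). The gene SMARCB1, which overlaps DERL3 on the other strand, had 11157 counts over the 8 libraries against 98 for DERL3. Of the lectins that deliver trimmed glycoproteins, ERLEC1 was called higher at 0.27, a call lost without ethanol replicate 4 (0.24), with upper-quartile scaling (0.23) and with limma on FPKM (0.21), and OS9 was not, at 0.16. ASB3, on the other strand, had 17.8% as many reads as ERLEC1.

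In the translocon group 1 of 3 genes was called. SEC61A1, the channel subunit, was higher by 0.29 (340 to 348 CPM in ethanol, 407 to 430 in O/A), a call lost with limma on FPKM (0.24), and SEC61B, a small subunit, stood at 0.19 with overlapping groups. The genes MGLL and RUVBL1 overlap SEC61A1 on the other strand, with 19.3% and 24.3% as many reads and log2 fold changes of -0.08 and -0.24. WFS1, an ER membrane protein mutated in Wolfram syndrome, stood at 0.07, with 16.4 to 18.9 CPM in ethanol and 18.3 to 20 in O/A.

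Because a few genes rose strongly, the makeup of this machinery shifted. The 38 genes took 0.701 to 0.725% of all counts in ethanol, which became 1.03 to 1.06% in O/A, and without HSPA5 the ranges were 0.641 to 0.662% and 0.835 to 0.847%. HSPA5 alone made up 8.52 to 8.87% of the counts of the 38 genes in ethanol and 19.0 to 20.3% in O/A. Per length, CALR was the most abundant of the 38 transcripts in ethanol at 262 ± 7.13 FPKM (SD, n = 4), ahead of HSPA5 at 95.3 ± 2.63. In O/A, HSPA5 was first, at 314 ± 12.2 FPKM, and CALR second, at 288 ± 5.62, and the libraries of these neighbors did not overlap in either condition (300 to 329 and 280 to 293 FPKM in O/A). HERPUD1 went from position 24 to position 6, DNAJB9 from 28 to 9, where it was level with P4HB, and XBP1 from 13 to 5. These positions depend on the annotated exonic lengths, for example 3028 bases for XBP1 and 13764 for CANX. By mean CPM in O/A, which is not per length, CANX (974) stood above XBP1 (285). The order of HSPA5 and CALR was the same by mean CPM, 613 and 725 in ethanol and 2090 and 820 in O/A. ERN1 remained near the bottom, at position 36 in ethanol and 35 in O/A.

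**Figure D3:**
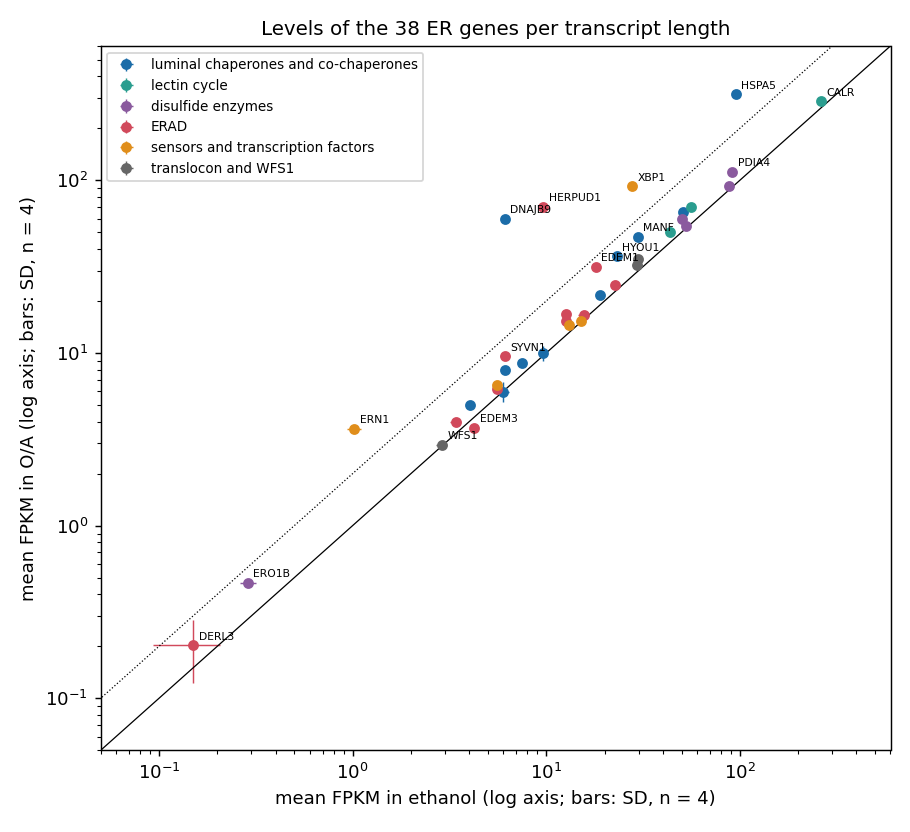
Mean FPKM of the 38 genes in ethanol (x) and O/A (y), both on log axes, with SD bars (n = 4) and the roles in color. The solid line marks equal levels and the dotted line a 2-fold higher level in O/A; DNAJB9, HERPUD1, ERN1, XBP1 and HSPA5 lie above the dotted line.

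Paralogs and partners within the 38 genes were compared as log2 ratios of counts inside each library, for 11 pairs chosen after the single-gene values were known. With 4 against 4 libraries the smallest p of the two-sided exact permutation test is 0.0286, which 7 pairs reached, and their Benjamini-Hochberg adjusted p over the 11 pairs was 0.0449. Because the pairs were chosen with the values known, and the EDEM ratios share genes, these p-values only describe that the libraries separate. The ratio of EDEM1 to EDEM3 went from 0.62 ± 0.011 (SD, n = 4) to 1.63 ± 0.025, a change of 1.01. EDEM1 also rose against EDEM2 by 0.73, and EDEM2 against EDEM3 by 0.28. The remaining pairs at the smallest p were ERO1B over ERO1A (0.63), DERL1 over DERL2 (0.26), ATF6 over ATF6B (0.20) and CANX over CALR (0.19). The 4 other pairs overlapped between conditions: OS9 over ERLEC1 changed by -0.10 (exact p = 0.143), SDF2 over SDF2L1 by 0.06 (exact p = 0.429), DERL2 over DERL3 by -0.25 (exact p = 0.457) and DERL1 over DERL3 by 0.01 (exact p = 1.0).

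**Figure D4:**
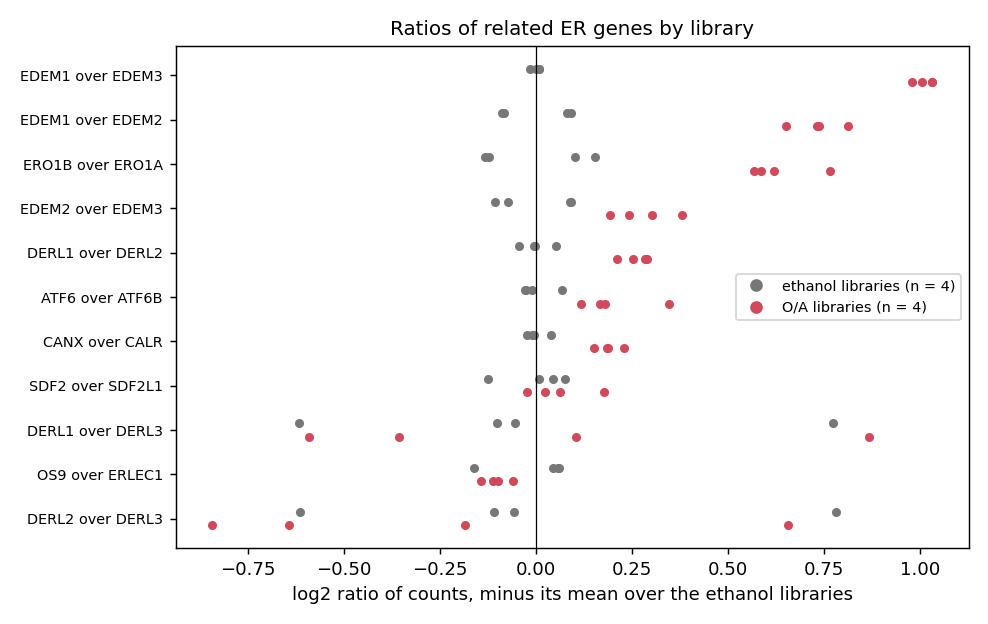
Log2 ratio of counts for 11 pairs of related genes in each library (points), drawn relative to the mean of the ethanol libraries. The O/A libraries are separate from the ethanol libraries for the first 7 pairs from the top and overlap them for the last 4.

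A wider list of ER genes gives the surroundings: 92 genes of translocation, N-glycosylation, folding, ERAD and UPR processing, of which 90 were tested. In it 25 were called higher (27.8%) and 3 lower (3.33%), with a median log2 fold change of 0.15. Over all genes tested the shares were 15.8% higher and 18.9% lower. By role, 7 of 16 genes of the translocon and signal peptide cleavage, 3 of 17 of N-glycosylation, 8 of 26 further folding enzymes, 7 of 22 further ERAD genes and 0 of 9 genes of UPR processing were called higher. The share in N-glycosylation (17.6%) was near that of all genes. None of the 9 was above 0.17, and they include MBTPS1 and MBTPS2, the Golgi proteases that cleave ATF6. The highest was FICD, the enzyme that modifies BiP with AMP and removes it, with 60, 49, 56 and 69 counts with ethanol and, with O/A, 245, 213, 244 and 189 (log2 fold change 1.99, SE 0.12). TXNDC12, a thioredoxin-like ER protein, rose by 0.68, FKBP2, a prolyl isomerase, by 0.66, and SELENOS, an ERAD selenoprotein, by 0.65. FKBP2 had as few as 23 to 38 counts in ethanol, against 30 to 55 in O/A, its groups overlapped, and limma on FPKM did not call it. The 3 that fell were TRAF2 (-0.48), an adaptor that binds active IRE1, MOGS (-0.44), the glucosidase that trims the first glucose from N-glycans, and TRAM2 (-0.37), a translocon-associated protein that was listed among the ERAD genes.

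**Figure D5:**
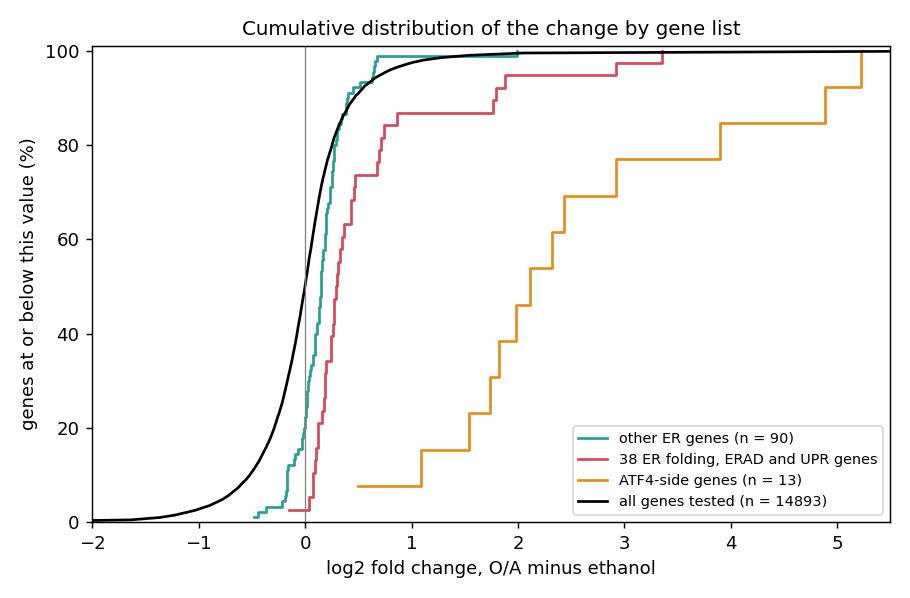
Cumulative share of genes (y, percent) at or below each log2 fold change (x, O/A minus ethanol) for all genes tested (n = 14893), 90 other ER genes, the 38 genes, and 13 genes of the PERK and ATF4 side. The medians are about 0, 0.15, 0.29 and 2.11, and the curve of the 38 genes has a long right tail from HSPA5, XBP1, ERN1, HERPUD1 and DNAJB9.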

How the data were processed

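mRNA of 8 libraries of N/TERT-1 cells (4 ethanol, 4 O/A) was analysed. Per the labels and the study's methods, the authors selected poly(A) RNA with oligo(dT), aligned reads with HISAT2 2.0.1 to GRCh38.p13 and counted them per Ensembl gene with HTSeq 0.6.1. The strand setting and Ensembl release are not given in the sources used here. The deposited table holds raw counts, which were used for every test, and FPKM values computed by the authors per gene length and library, used for levels between genes. The authors' DESeq2 columns (fold changes and p-values) were not used. Groups and replicate numbers came from the sample titles, and each title marks a biological replicate.

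The 38 genes and all gene lists were chosen with earlier results of these data known. Genes reaching 10 counts in 4 or more libraries entered edgeR 4.0.16 (TMM scaling, glmQLFit with robust = TRUE, glmQLFTest, R 4.3.3), with Benjamini-Hochberg adjustment over 14893 genes. The study used DESeq2, which served here as an alternative (1.42.0), as did limma 3.58.1 on log2(FPKM + 0.1), other scalings, no filter, a replicate block, other fold thresholds and each library left out. The procedure was tested on simulated counts with known changes. In them far fewer genes changed than were called here, and none changed by an amount near the fold threshold. Calls near that threshold were therefore not covered. Counts per library were given in full for HSPA5, XBP1, ERN1, ATF6, HERPUD1 and the 5 called genes with the largest rise, and for low or deviating genes chosen after their values were seen. From the wider ER list the 4 largest rises and up to 4 falls were named. Overlapping genes and pseudogenes were named where they had over 10% of a gene's reads, and PDIA3P1 besides. Intervals are the estimate plus and minus 1.96 SE. Promoters are RefSeq windows of GRCh38.p14, matched by symbol. A comparison of the proteins' ER retention signals was planned and not made here.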

Additional observations from a re-analysis of the deposited data

Results flagged for a closer look

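In 100 groups of 4 libraries (the 2 conditions of each named gene), 8 held 1 library far from the other 3 by Dixon's criterion, where chance gives about 1 in 20, or 5.0. All values are CPM. Among the 38 genes, HERPUD1 was lowest in O/A replicate 2 at 346.7 (others 366.7 to 370.2), and so was DNAJC10 at 213.3 (others 223.3 to 225.3). CALR was lowest in ethanol replicate 4 at 697.1 (others 731.9 to 736.6), and ATF6 was lowest in ethanol replicate 2 at 74.25 (others 79.4 to 80.03). Among the other ER genes, FICD was lowest in ethanol replicate 2 at 2.748 (others 3.19 to 3.244), TXNDC12 was highest in O/A replicate 4 at 23.39 (others 22.32 to 22.5), and TRAM2 was highest in ethanol replicate 3 at 107.2 (others 105.1 to 105.4) and lowest in O/A replicate 4 at 79.42 (others 82.64 to 83.11). In each of these genes the 2 conditions did not overlap.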

How the results depend on the processing

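Of the 38 genes, 22 were called in the analysis reported, 23 with DESeq2, 18 with limma on FPKM, 23 with median-ratio scaling, 19 with upper-quartile scaling, 22 without a count filter and 21 to 23 with 1 library left out. DNAJC10, ERLEC1 and ATF6 lost their call under limma and upper-quartile scaling and SEC61A1 under limma, while DNAJC3 gained one under DESeq2, median-ratio scaling and 3 left-out libraries, and PDIA3 without ethanol replicate 3. All of these lie near the fold threshold. The replicate block gave 22 calls among the 38 and 5160 among all genes, against 5165, and changed no call of the 38. Same-numbered libraries shared little beyond the number (correlations of their deviations 0.044, -0.0032, -0.028 and 0.074, and 3 of 8 libraries correlated best with their own number). The labels do not say whether the conditions were paired by experiment. These correlations cannot decide it, because the numbers need not follow the experiments. The analysis reported used no block. Without a fold threshold, 1 of the 38 was lower, 65 of the other ER genes were called (54 higher, 11 lower), and 7999 of all genes were (3868 higher). At a log2 fold change above 1, 5 of the 38 were called (5 higher), 1 of the other ER genes (1 higher, 0 lower), and 797 of all genes (382 higher, 415 lower). Under limma, 16 other ER genes were higher, against 25, and FKBP2 was no longer called. The sign of SDF2L1 turned under limma (-0.012) and without O/A replicate 1 (range with 1 library left out -0.052 to 0.093), as did the ratios of DERL1 to DERL3 (-0.28 to 0.26) and DERL2 to DERL3 (-0.56 to 0.0063), which rest on under 21 DERL3 counts per library. With a library left out, the exact test of a ratio cannot go below 0.0571, so it could not decide for the 7 ratios, which kept their sign. Low counts limit the precision of genes such as DERL3, ERO1B, SDF2L1, FICD and FKBP2. The all-gene median moved by at most 0.045 on the log2 scale, under limma.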
